A study of Homo sapiens with 24 samples.

Results

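Expression of 9 genes, SFRP1, SFRP2, SFRP4, FRZB, DKK1, DKK3, WIF1, AXIN2 and LEF1, was followed in U251 cells exposed to G-1, out of 24817 genes with a symbol on the arrays. The genes were chosen by name: 7 encode secreted antagonists of WNT ligands, and 2, AXIN2 and LEF1, are genes that WNT signaling commonly induces. SFRP4 was taken because its signal fell at the lower dose after 72 h, so its values in that contrast are a description and no test. U251 is a human glioblastoma (GBM) cell line, and G-1 is an agonist of the G protein-coupled estrogen receptor GPER. Cells received G-1 at 1 µM, G-1 at its IC50 dose, which is lower, or the vehicle DMSO (0.1% in the labels), for 24 h or 72 h, and the study asked how dose and duration shape the transcriptome. All groups shared the same cell line, phenol red-free medium and a steroid hormone deprivation before exposure. Each of the 6 groups (DMSO 24 h, DMSO 72 h, G-1 IC50 24 h, G-1 IC50 72 h, G-1 1 µM 24 h and G-1 1 µM 72 h) had 4 arrays, which the labels call independent biological replicates.

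WNT proteins are secreted ligands that bind Frizzled receptors together with the co-receptors LRP5 and LRP6. Binding protects beta-catenin from a destruction complex built on axin, APC and GSK3, and beta-catenin then joins TCF and LEF factors on target genes. Secreted frizzled-related proteins (SFRP1, SFRP2, SFRP4 and FRZB) and WIF1 bind the ligands themselves outside the cell. DKK1 blocks the LRP co-receptors, whereas DKK3 is a divergent Dickkopf protein whose part in the pathway is less settled. AXIN2 is a scaffold of the destruction complex that acts as negative feedback, and LEF1 is a nuclear partner of beta-catenin. Genes of secreted antagonists are known to be silenced by promoter methylation in many tumors.

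Signals are given as log2 signal, the log2 of the background-subtracted intensity of a probe minus the 75th percentile of its array, so that 0 is the brightness of the 75th percentile. A level can be compared between arrays for 1 probe, but not between probes. The third of 3 slides, scanned in a session of its own, carried the 8 arrays treated with 1 µM and no others, so that at one duration the higher dose and the session cannot be told apart. On those arrays, the lowest signal called well above background was between 16.1 and 24.8 intensity units, against 13 to 16.6 on the 16 other arrays, which shared the first and second slides. Defining markers of astroglial and glioma cells (GFAP, S100B, SOX2, NES, VIM and CD44) were well above background on all 24 arrays, whereas OLIG2 was not on any. PTPRC, AIF1, PECAM1, EPCAM and CDH1, which mark immune, endothelial and epithelial cells, were on no array. Other markers on those lists were measured, with CD14 (immune) on 24 arrays, VWF and CDH5 (endothelial) on 23 and 16, and the neuronal RBFOX3, SNAP25 and SYT1 and the oligodendrocyte marker MBP on all 24.

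The members differed in whether they could be measured. DKK1, DKK3, FRZB, LEF1 and SFRP1 were well above background on all 24 arrays, and AXIN2 on 21. SFRP4 was well above background on all 8 DMSO arrays but on 1 of the 16 G-1 arrays. SFRP2 and WIF1 were not well above background on any array, with intensities between 3.19 and 14.7 for SFRP2 and between 2.78 and 12.5 for WIF1, and they were not tested. Thus, 7 of the 9 members were tested by their brightest probe, among 14232 genes. SFRP4 entered the test only through the DMSO groups, where it is high. A gene that enters in this way is more likely to be lower in the other groups. Its inclusion in the counts of lower genes is therefore no support for them. AXIN2 entered through the DMSO and IC50 groups and not through those at 1 µM, so the same holds for its falls at 1 µM.

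Promoter sequences of 6 of the 9 members were found in the RefSeq-based table on GRCh38.p14 (SFRP2, SFRP4, FRZB, WIF1, DKK1 and LEF1). Those of a pair of secreted frizzled-related genes that were lower at the higher dose (SFRP4 and FRZB), of LEF1, which fell, and of DKK1, which did not pass the test at any dose, are printed so that their TCF/LEF letters can be compared. Each window holds the 250 bases before the 1 start that this source lists for the gene, 5′ to 3′ on its own strand. Other starts of a gene were not searched. Capitals mark CTTTG, the core of the sequence that TCF and LEF factors bind, on either strand (CAAAG on the printed strand).
SFRP4, chr7:37916818-37917067, minus strand: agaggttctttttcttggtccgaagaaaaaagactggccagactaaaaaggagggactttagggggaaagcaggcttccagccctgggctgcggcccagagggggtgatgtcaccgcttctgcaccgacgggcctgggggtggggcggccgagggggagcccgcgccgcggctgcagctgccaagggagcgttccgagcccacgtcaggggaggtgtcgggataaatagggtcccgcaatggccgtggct
FRZB, chr2:182866638-182866887, minus strand: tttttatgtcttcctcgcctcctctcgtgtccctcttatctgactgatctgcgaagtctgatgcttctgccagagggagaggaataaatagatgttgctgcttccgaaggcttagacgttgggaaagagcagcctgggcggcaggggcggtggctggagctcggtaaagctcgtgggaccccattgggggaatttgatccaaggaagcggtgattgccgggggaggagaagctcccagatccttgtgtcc
LEF1, chr4:108166302-108166551, minus strand: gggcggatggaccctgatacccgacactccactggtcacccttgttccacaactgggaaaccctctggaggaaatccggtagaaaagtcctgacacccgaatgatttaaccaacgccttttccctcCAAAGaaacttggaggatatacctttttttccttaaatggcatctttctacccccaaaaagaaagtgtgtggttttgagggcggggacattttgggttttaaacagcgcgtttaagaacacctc
DKK1, chr10:52314031-52314280, plus strand: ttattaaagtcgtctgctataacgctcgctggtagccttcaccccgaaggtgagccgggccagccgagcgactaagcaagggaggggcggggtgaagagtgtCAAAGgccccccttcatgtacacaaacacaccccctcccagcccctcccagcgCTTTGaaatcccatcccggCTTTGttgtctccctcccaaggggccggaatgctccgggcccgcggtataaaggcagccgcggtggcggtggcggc
The core occurred 3 times before DKK1, once before LEF1, and not at all before SFRP4 and FRZB. Of 35116 promoter windows of this length, 42.1% held at least 1 core and 2.83% held at least 3. Of 4 longer motifs, which are the core followed by AA, AT, TT or TA and so contain it, DKK1 had 2 matches and the other 3 printed windows had none, whereas 12% of all windows had at least 1. The SFRP4 window held 17 CpG dinucleotides and the FRZB window 11, against a median of 11 over all windows. These matches describe letters in the windows and do not show binding.

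FRZB, which binds WNT ligands outside the cell, showed the widest range among the members well above background on all arrays, and passed the test against DMSO at the higher dose after 72 h but not in the other 3 comparisons. On the arrays of DMSO 72 h, its log2 signal was 6.88, 7.05, 7.01 and 7.51 for replicates 1 to 4. On those of G-1 1 µM 72 h, it was 3.87, 3.45, 4.94 and 5.00. All 4 treated arrays lay below every other array of the series for this gene, the next being one of G-1 1 µM 24 h at 6.0. The fall was 2.80 ± 0.37 on the log2 scale (SE, n = 4 against 4), or 6.96-fold, with an adjusted p of 1.42e-06 in limma. After 24 h at the same dose, the log2 signals were 6.04, 6.0, 6.99 and 7.26, against 6.58, 6.17, 7.18 and 7.38 with DMSO. These ranges overlapped, with replicates 1 and 2 lower than replicates 3 and 4 in both groups, but each treated array was below the DMSO array of the same number. The difference of -0.25 had a 95% interval from -1.02 to 0.51 (adjusted p = 0.631), and with the replicate number as a block its SE was 0.19 and its adjusted p 0.316. At the IC50 dose, FRZB was between 6.31 and 7.42 after 24 h and between 6.75 and 7.59 after 72 h, and the differences from DMSO were 0.09 (-0.67 to 0.86) and 0.08 (-0.69 to 0.85).

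SFRP1, another secreted frizzled-related protein, rose with time in the vehicle and was lower at the higher dose of G-1 after 72 h. Its log2 signal was 2.96, 3.15, 2.75 and 3.33 in DMSO 24 h and 3.78, 3.93, 3.37 and 3.75 in DMSO 72 h. The groups did not overlap, and the rise of 0.66 ± 0.15 had an adjusted p of 0.0196. SFRP1 was the only member that passed the test in this comparison, where 3.29% of all genes passed, 1.23% as higher, and 0.169% were called, that is, passed with a fold above 2. Within the slides, the rise was 0.83 on the first (2 arrays against 3) and 0.42 on the second (2 against 1). The adjusted p was above 0.05 with the 50th percentile (0.128), without a filter on dim probes (0.0845), on the 8 arrays alone (0.109) and in the methods' t-test (0.166).
After 72 h at 1 µM, the log2 signal of SFRP1 was 2.65, 2.31, 2.32 and 2.72, below all 4 arrays of DMSO 72 h. The fall was 1.21 ± 0.15, or 2.32-fold, with an adjusted p of 5.7e-07. After 24 h at 1 µM, SFRP1 was 2.54, 2.77, 2.64 and 3.01, which overlapped DMSO 24 h. The difference of -0.31 ± 0.15 did not pass the test (adjusted p = 0.122). With the replicate number as a block, the adjusted p was 0.0215, and with normexp background correction it was 0.0398. At the IC50 dose, the differences were -0.23 (-0.54 to 0.08) after 24 h and -0.03 (-0.34 to 0.28) after 72 h.

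**Figure D1:**
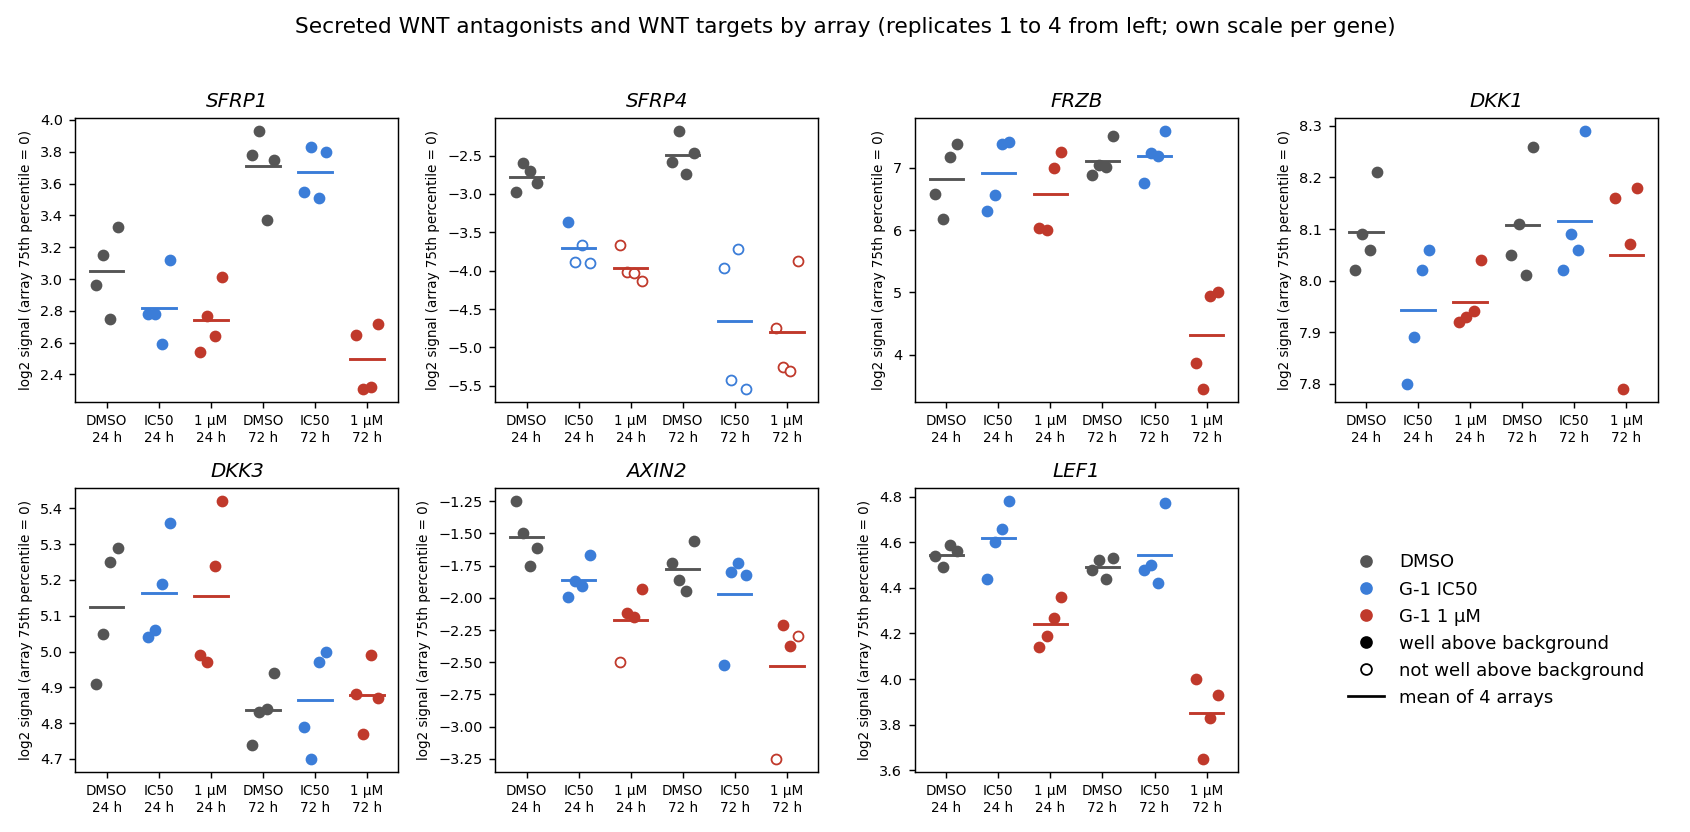
Log2 signal (y axis, array 75th percentile at 0) of the 7 tested members on each of the 24 arrays, by group (x axis), with replicates 1 to 4 from left to right, filled where the probe was well above background, and a bar at the mean of 4 arrays. FRZB on the arrays of G-1 1 µM 72 h lies between 3.45 and 5.00, below all other arrays, whereas DKK1 stays between 7.79 and 8.29 on all 24.

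SFRP4, also a secreted frizzled-related protein, was measurable with DMSO and close to or below the limit of detection with G-1. Its log2 signal was -2.97, -2.60, -2.70 and -2.86 in DMSO 24 h, and -2.58, -2.18, -2.74 and -2.47 in DMSO 72 h. In G-1 IC50 72 h, the contrast for which it was chosen, it was -3.96, -5.42, -3.72 and -5.54. No array of that group was well above background and none overlapped DMSO 72 h. Its mean was -4.66, against -2.49 in DMSO 72 h. DMSO 72 h was 1.91-fold above the lowest signal called well above background on the dim arrays. That is no strict bound, since spots without the flag can exceed that signal. Within the slides, the difference in log2 signal was -3.10 on the first (1 array against 2) and -1.75 on the second (3 against 2). With normexp background correction, the difference over all arrays of both groups was -0.35. The arrays of G-1 IC50 72 h differed widely, since replicates 2 and 4 fell into a low band of near-equal intensities. On 5 arrays (these 2, and replicates 1, 2 and 3 of G-1 1 µM 72 h), between 23.1% and 28.5% of all spots lay within 10% of the intensity of SFRP4, against 1.41% to 2.65% on the 19 other arrays. Values in that band have no order.

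The 24 h arrays did not serve to choose SFRP4, but it entered the test only through the DMSO groups. Its separation and p-values after 24 h are therefore a description and no support for a fall. In G-1 IC50 24 h, its log2 signal was -3.36, -3.89, -3.67 and -3.90, of which only replicate 1 was well above background. None of these arrays overlapped DMSO 24 h, a separation that 2.75% of all genes showed. The difference of -0.92 ± 0.34 had an exact two-sided permutation p of 0.0286, the smallest that 4 arrays against 4 can give, and an adjusted p of 0.766 in limma, so it did not pass the test. Its values were -0.94 within the first slide (2 against 3) and -1.03 within the second (2 against 1).
At 1 µM, SFRP4 was -3.67, -4.02, -4.03 and -4.13 after 24 h and -4.75, -5.25, -5.31 and -3.88 after 72 h. None of these 8 arrays was well above background, and none overlapped DMSO of the same duration. After 72 h, the SFRP4 means were -4.80 with G-1 and -2.49 with DMSO. DMSO 72 h was 1.25-fold above the lowest signal called well above background on the treated arrays. It is a description, since the treated values lay below the detection limit and the DMSO arrays are those by which the gene was chosen. After 24 h, the means were -3.96 and -2.78, but the detection limit of the second session lay so near the DMSO signal that no fold is given. The fitted adjusted p of 0.0124 there rests on values below that limit, and with normexp background correction, which keeps dim probes nearer to each other, the difference was -0.13 with an adjusted p of 0.252. With normexp, the difference after 72 h was -0.33. Between the doses at 24 h, the difference was -0.26, and with normexp it was 0.23, so its direction depended on the background correction. The second probe for SFRP4 was well above background on 2 arrays, one of DMSO 24 h and one of DMSO 72 h, and was not tested.

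**Figure D2:**
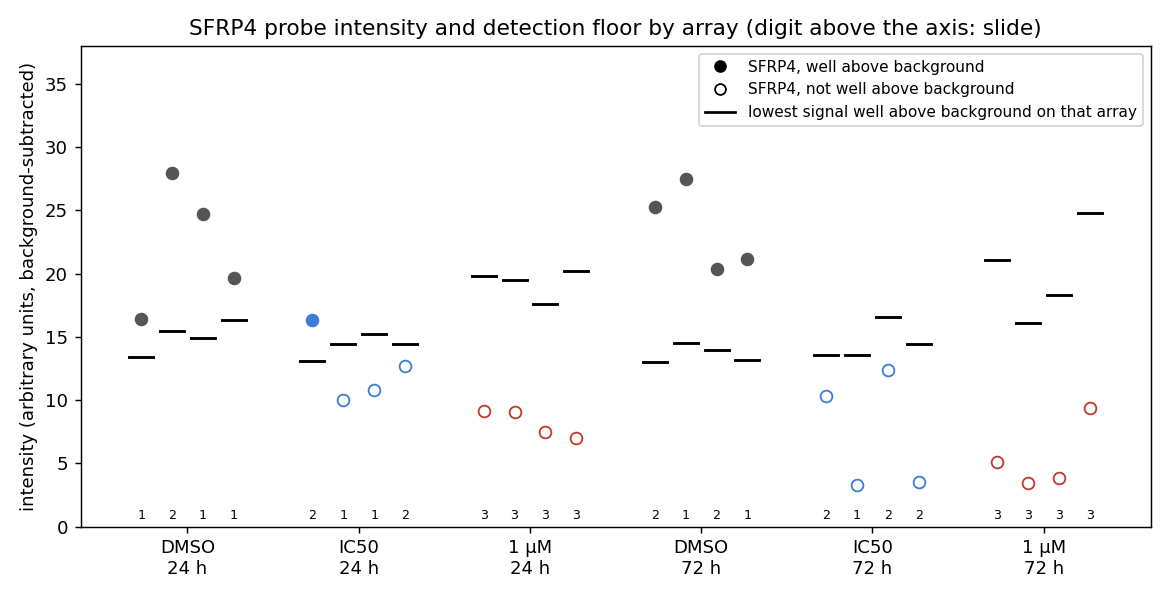
Intensity of the brightest SFRP4 probe (y axis, background-subtracted, arbitrary units) on each array by group (x axis), with a black bar at the lowest signal called well above background on the same array and the slide number at the foot. The 8 DMSO arrays lie between 16.4 and 27.9, above their bars, and 15 of the 16 G-1 arrays lie below theirs.

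The Dickkopf genes gave a different picture from the SFRP family, since neither passed the test in any comparison of G-1 with DMSO. DKK1, the inhibitor of the LRP co-receptors, had a log2 signal between 7.79 and 8.29 over all 24 arrays. Its differences from DMSO were -0.15 (95% interval -0.33 to 0.03) in G-1 IC50 24 h, 0.01 (-0.17 to 0.19) in G-1 IC50 72 h, -0.14 (-0.32 to 0.04) in G-1 1 µM 24 h and -0.06 (-0.24 to 0.12) in G-1 1 µM 72 h. These intervals exclude a change of 2-fold, though not smaller ones, and with normexp the difference at 1 µM after 24 h was -0.26 with an adjusted p of 0.0348. DKK3 was between 4.70 and 5.42 on all arrays. After 72 h at 1 µM, its difference from DMSO was 0.04 (-0.18 to 0.26), and its second probe gave -0.14 (-0.48 to 0.21). Its 4 arrays of DMSO 72 h (4.74, 4.83, 4.84 and 4.94) lay mostly below those of DMSO 24 h (4.91, 5.05, 5.25 and 5.29), with an overlap of 1 array on each side and an adjusted p of 0.150, or 0.0161 with the replicate number as a block.

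The WNT target genes AXIN2 and LEF1 were lower at 1 µM after 24 h and after 72 h, both by less than 2-fold. LEF1 had a log2 signal between 4.49 and 4.59 in DMSO 24 h and between 4.44 and 4.53 in DMSO 72 h, the narrowest DMSO groups among the members. In G-1 1 µM 24 h it was 4.14, 4.19, 4.27 and 4.36, and in G-1 1 µM 72 h it was 4.00, 3.65, 3.83 and 3.93. Neither group overlapped its DMSO group, and the 72 h arrays also lay below all of the 24 h arrays of the same dose. The fall was 0.31 ± 0.08 on the log2 scale after 24 h (adjusted p = 0.0106) and 0.64 ± 0.08 after 72 h (1.56-fold, adjusted p = 1.49e-06). At the IC50 dose, LEF1 differed from DMSO by 0.07 (-0.10 to 0.25) after 24 h and by 0.05 (-0.13 to 0.23) after 72 h.

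AXIN2 was dimmer, and close to the detection limit at the higher dose. Its log2 signal was -1.25, -1.5, -1.75 and -1.61 in DMSO 24 h and -2.50, -2.12, -2.15 and -1.93 in G-1 1 µM 24 h, of which 3 were well above background. In DMSO 72 h it was -1.73, -1.86, -1.95 and -1.56, and in G-1 1 µM 72 h -3.25, -2.21, -2.37 and -2.30, of which 2 were well above background. The groups did not overlap at either duration. AXIN2 fell by 0.64 ± 0.20 on the log2 scale after 24 h (adjusted p = 0.0192) and by 0.76 ± 0.20 after 72 h (adjusted p = 0.00232). It entered the test only through the DMSO and IC50 groups, where it is higher, so these limma p-values are a description. With normexp, the 72 h difference was -0.22 (adjusted p = 0.0240). The 24 h fall did not pass with normexp (-0.19, adjusted p = 0.0951), without replicate 1 of DMSO 24 h (adjusted p = 0.0617), or without replicate 1 of G-1 1 µM 24 h (adjusted p = 0.0712). A second AXIN2 probe, well above background on 15 arrays, gave -0.39 ± 0.24 after 24 h (adjusted p = 0.243) and -0.40 ± 0.24 after 72 h (adjusted p = 0.161), in the same direction without passing the test. At the IC50 dose, the differences of the brightest probe were -0.33 (-0.74 to 0.08) after 24 h and -0.19 (-0.60 to 0.22) after 72 h.

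**Figure D3:**
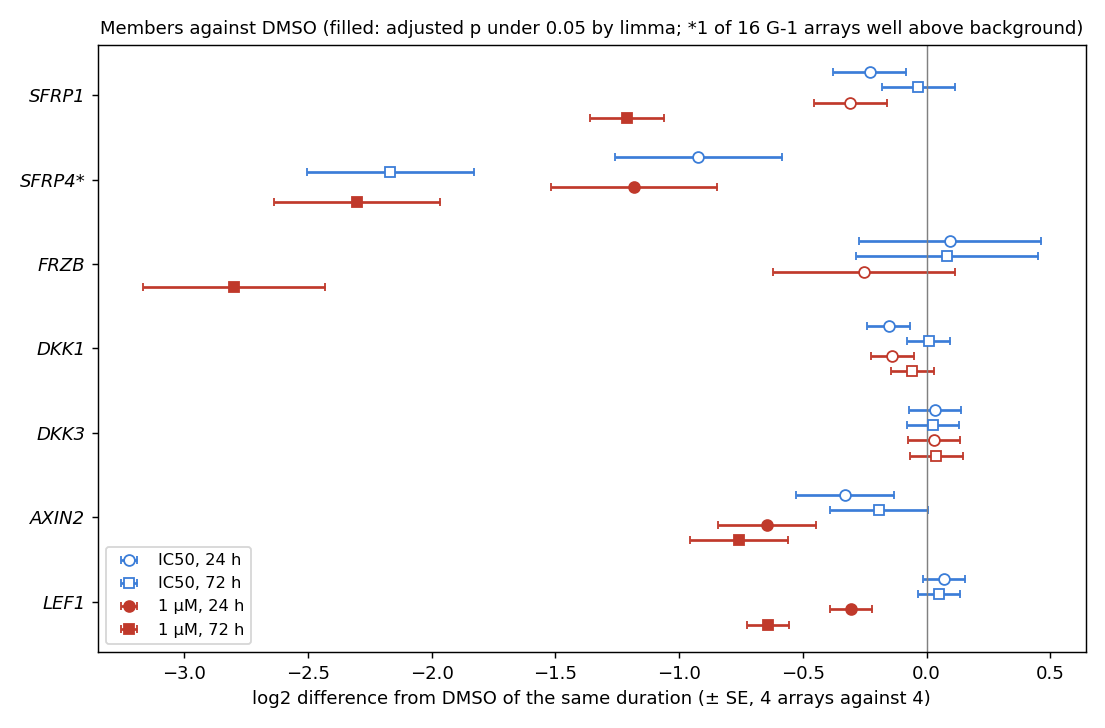
Log2 difference of each tested member from DMSO of the same duration (x axis, mean difference of 4 arrays against 4 with its SE), circles for 24 h and squares for 72 h, filled where the adjusted p was under 0.05 (SFRP4 at the IC50 dose after 72 h is open because it was not tested). FRZB is filled at 1 µM after 72 h alone, DKK1 and DKK3 lie near 0 in all 4 comparisons, and the SFRP4 differences are those of measured signals of which 1 of 16 G-1 arrays was well above background.

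Counts over the members are given beside the same share over all genes, and with and without SFRP4. In G-1 IC50 24 h, none of the 7 tested members passed (1 had an unadjusted p under 0.05, SFRP4, and none was called in the methods' t-test after Benjamini-Hochberg adjustment), where 0.246% of all genes passed, 0.0632% were called and 4.66% had an unadjusted p under 0.05. In G-1 IC50 72 h, none of the 6 members tested beside SFRP4 passed (none had an unadjusted p under 0.05, and none was called in the methods' t-test after adjustment), where 0.885% of all genes passed, 0.112% were called and 9.59% had an unadjusted p under 0.05. Groups overlapped there for all 6, whereas they did not overlap for 7.54% of all genes. In G-1 1 µM 24 h, AXIN2 and LEF1 passed among the 6 members other than SFRP4, both lower, and none was called (2 had an unadjusted p under 0.05), against 30.6% of all genes that passed and 1.69% that were called. With SFRP4 the fit counted 3 of 7 passed and 1 called, SFRP4 itself, whose fold above 2 is one of signals below the detection limit. Of all genes, 10.5% passed and 1.18% were called as lower, and groups did not overlap for 30.3%, against 2 of the 6 members. In G-1 1 µM 72 h, 4 of the same 6 passed, all lower (AXIN2, FRZB, LEF1 and SFRP1), and 2 were called (FRZB and SFRP1), or 5 and 3 of 7 with SFRP4, against 66.2% of all genes that passed and 12.3% that were called. Counting lower genes alone, 30.9% of all genes passed and 7.40% were called there. Groups did not overlap for 4 of the 6 members and for 58.7% of all genes in that comparison, and the median difference of the 6 was -0.70 against 0.03 over all genes. At both durations, the share of members that passed at 1 µM was near that of all genes and is no result about them. AXIN2, counted among those that passed, entered the test only through the DMSO and IC50 groups and is no support for the counts of lower genes. The comparisons of both doses share the DMSO arrays of each duration.

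The doses were also set against each other. After 72 h, FRZB was -2.88 ± 0.37 at 1 µM relative to the IC50 dose as a log2 difference (adjusted p = 1.1e-06), while SFRP1 differed by -1.18 ± 0.15 (adjusted p = 9.35e-07). LEF1 differed by -0.69 ± 0.08 (adjusted p = 6.17e-07) and AXIN2 by -0.57 ± 0.20 (adjusted p = 0.0172). That difference for AXIN2 did not pass on the 8 arrays alone (0.0880), with normexp (0.191) or in the methods' t-test (0.159). For DKK1 the difference was -0.07 (-0.25 to 0.12) and for DKK3 0.01 (-0.21 to 0.23). SFRP4, described only, had means of -4.80 and -4.66 with no array of either group well above background. In this comparison, 4 of the 6 tested members passed and 2 were called, all lower, against 65.1% and 11.4% of all genes, or 29.3% and 6.87% that were lower. AXIN2 is among the 4, and it entered the test only through the DMSO and IC50 groups. After 24 h, LEF1 alone passed among the 7 members (-0.38 ± 0.08, adjusted p = 0.00296), where 26.6% of all genes passed and 1.43% were called, or 8.28% and 1.11% as lower.

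Whether the response to 1 µM changed between 24 h and 72 h was tested by the interaction of dose and duration, from which a constant offset between the scanning sessions drops out. The difference from DMSO was larger in size after 72 h for FRZB by -2.54 ± 0.52 (adjusted p = 0.000928) and for SFRP1 by -0.90 ± 0.21 (adjusted p = 0.00271). For LEF1 the interaction was -0.34 ± 0.12 (adjusted p = 0.0374), and it no longer passed when 1 array was omitted for 9 of the 16 (adjusted p between 0.0532 and 0.0830), nor with the 50th percentile (0.206), normexp (0.211) or no filter on dim probes (0.152). No interaction is given for SFRP4, which was not well above background on any of the 8 arrays at 1 µM. AXIN2, which had fallen by a like amount at both durations, gave -0.11 (95% interval -0.69 to 0.47). DKK1 gave 0.08 (-0.17 to 0.34) and DKK3 0.01 (-0.30 to 0.32). Of the 6 members other than SFRP4, 3 passed and 1 was called, all negative, against 34.1% and 6.29% of all genes, or 17.6% and 3.87% with a negative value. For the IC50 dose, none of the 6 tested members passed the same test (none had an unadjusted p under 0.05), where 2 of 14232 genes (0.0141%) passed and 0% were called.

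The order of the groups differed between members. For SFRP1, the means ran from 3.71 ± 0.24 (SD, n = 4) in DMSO 72 h and 3.67 ± 0.17 in G-1 IC50 72 h to 3.05 ± 0.25 in DMSO 24 h, 2.82 ± 0.22 in G-1 IC50 24 h, 2.74 ± 0.20 in G-1 1 µM 24 h and 2.50 ± 0.22 in G-1 1 µM 72 h. Among these neighbours, only G-1 IC50 72 h and DMSO 24 h did not overlap. For FRZB, the highest mean was 7.19 ± 0.34 in G-1 IC50 72 h, and the first 5 groups overlapped their neighbours down to 6.57 ± 0.65 in G-1 1 µM 24 h, with G-1 1 µM 72 h apart at 4.32 ± 0.78. For LEF1, the first 4 groups overlapped their neighbours, from 4.62 ± 0.14 in G-1 IC50 24 h to 4.49 ± 0.04 in DMSO 72 h, and were followed by 4.24 ± 0.10 in G-1 1 µM 24 h and 3.85 ± 0.15 in G-1 1 µM 72 h, each apart from the next. All neighbours overlapped for AXIN2, from -1.53 ± 0.21 in DMSO 24 h to -2.53 ± 0.48 in G-1 1 µM 72 h, and likewise for DKK1 and DKK3.

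Other genes of the pathway were taken from a list of 82, of which 49 could be tested. Of 19 WNT ligands, 4 were tested (WNT3, WNT5A, WNT5B and WNT6), and 12 were well above background on no array. Among 11 other antagonists, 4 were tested, and DKK2, DKK4, SFRP5, SOST, SOSTDC1, NOTUM and RNF43 were well above background on no array. At the IC50 dose, none of the 49 passed after 24 h (3 had an unadjusted p under 0.05) or after 72 h (4 had), and none was called by the methods' t-test after adjustment. At 1 µM after 24 h, 10 were higher and 9 lower with an adjusted p under 0.05, of which 1 higher (WNT5B) and 1 lower (LGR6) were called. After 72 h, 14 were higher and 18 lower, of which 3 higher and 5 lower were called. LGR6 is among the 5. It entered the test only through the DMSO and IC50 groups, so its calls are no support for a fall. Of the 49, 38.8% passed after 24 h and 65.3% after 72 h, against 30.6% and 66.2% of all genes, and 4.08% and 16.3% were called, against 1.69% and 12.3%. These shares, and the counts by role, are thus read as a description of the list. The median difference over the 49 was -0.03 after 24 h and -0.07 after 72 h, against 0.04 and 0.03 over all genes.

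Among the ligands, WNT5B, a WNT that often signals without beta-catenin, had a mean log2 signal of -0.20 ± 0.19 (SD, n = 4) in DMSO 72 h and 1.67 ± 0.19 in G-1 1 µM 72 h. It rose by 1.12 ± 0.14 after 24 h (adjusted p = 3.12e-05) and by 1.86 ± 0.14 after 72 h (adjusted p = 1.11e-09). Among 12 tested receptors, 1 rose and 6 fell after 72 h, with the largest fall in the Frizzled receptor FZD4 (-1.21 ± 0.14, adjusted p = 4.38e-07), and the co-receptor LRP6 fell by 0.63 ± 0.12. APCDD1, a membrane-bound WNT inhibitor, fell by 2.27 ± 0.23 after 72 h, from a mean of 4.52 to 2.25 (adjusted p = 3.34e-08). LGR6, a receptor of the R-spondins that enhance WNT signaling, fell by 1.30 ± 0.31 (adjusted p = 0.00117), with 2 of 4 arrays of G-1 1 µM 72 h well above background. It entered the test only through the DMSO and IC50 groups, where it is higher, so its limma p-value is a description.
Inside the cell, 9 genes of the cytoplasmic relay were tested, of which 5 rose and 2 fell after 72 h. GSK3B, a kinase of the destruction complex, rose by 0.45 ± 0.06 (adjusted p = 7.5e-07), and DVL1, which relays the receptor signal, by 0.49 ± 0.07 (adjusted p = 3.35e-06). CTNNB1, which encodes beta-catenin, fell by 0.95 ± 0.07 (adjusted p = 2.56e-10). Of 12 nuclear factors, 2 rose and 7 fell, with PYGO1 (-1.36 ± 0.09) and BCL9 (-1.0 ± 0.09), which act together as coactivators of beta-catenin, past the 2-fold limit, and TCF7L1, a repressing TCF factor, at -0.96 ± 0.14. Thus, LEF1 was not alone among the TCF and LEF genes in falling, while TCF7 (0.48 ± 0.11) and TCF7L2 (0.37 ± 0.15) rose.
The other tested targets moved against AXIN2 and LEF1. MYC had a mean log2 signal of 2.81 ± 0.16 (SD, n = 4) in DMSO 72 h and 4.80 ± 0.21 in G-1 1 µM 72 h, a rise of 1.99 ± 0.15 (SE, adjusted p = 7.19e-10). CCND1, which encodes cyclin D1, rose from 2.38 ± 0.22 to 4.11 ± 0.30, by 1.72 ± 0.16 (adjusted p = 8.61e-09). SP5 rose by 0.49 ± 0.19 (adjusted p = 0.0276). MYC and CCND1 respond to many pathways beside WNT, and AXIN2 was close to the detection limit. Whether the activity of beta-catenin changed was not tested.

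**Figure D4:**
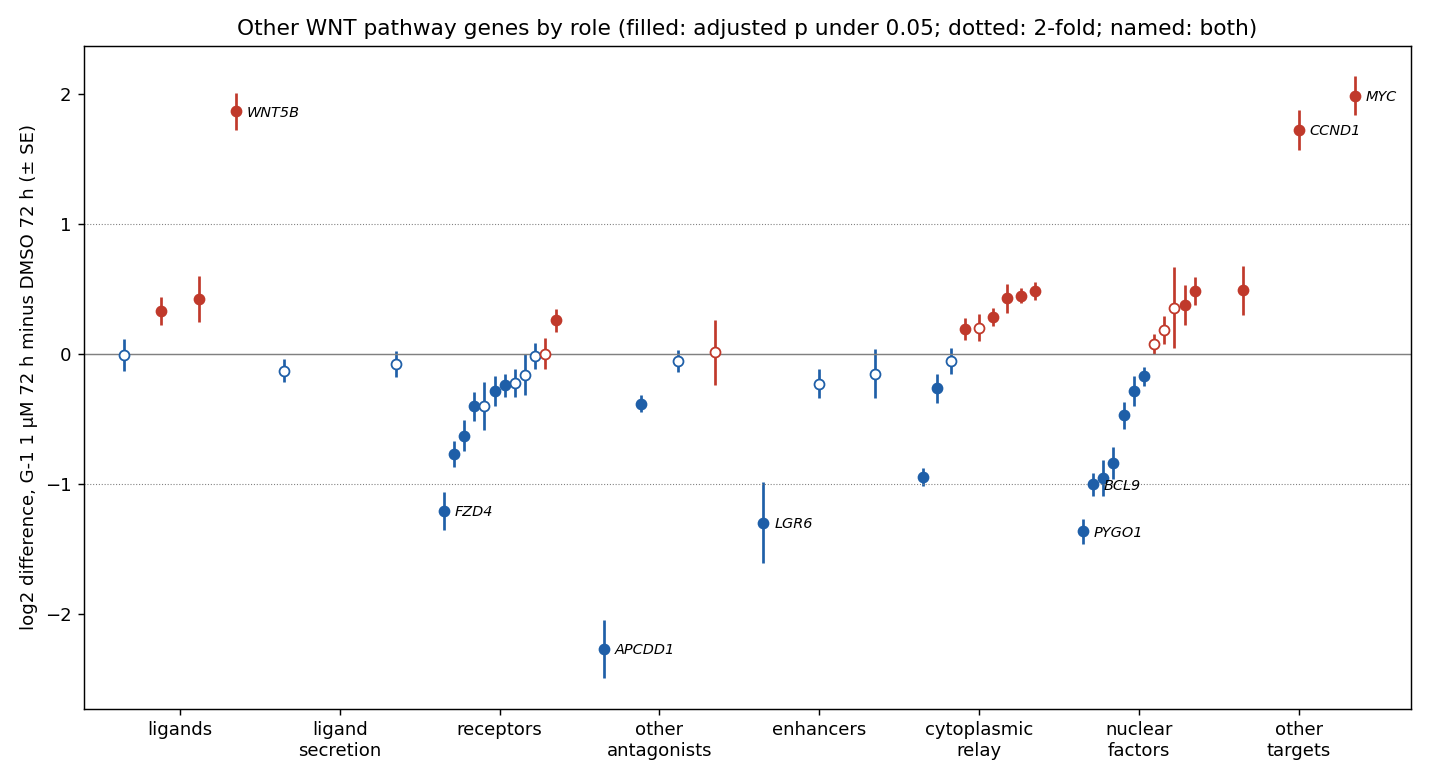
Log2 difference between G-1 1 µM 72 h and DMSO 72 h (y axis, with SE, 4 arrays against 4) for the 49 tested genes of the pathway list, sorted within each role (x axis), filled where the adjusted p was under 0.05 and named where the fold was above 2 as well. WNT5B, MYC and CCND1 lie above the dotted line of 2-fold and APCDD1, PYGO1, LGR6, FZD4 and BCL9 below it. LGR6 entered the test only through the DMSO and IC50 groups.

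Markers of astroglial and of other cell types moved at the same dose. In G-1 1 µM 72 h, the astroglial markers GFAP and S100B fell by 2.71 ± 0.31 and by 1.96 ± 0.20 on the log2 scale, beside the falls of FRZB and SFRP1. All 6 measured markers of the astroglial list were lower with an adjusted p under 0.05, where 66.2% of all genes passed, 30.9% as lower. Their summed intensity was between 186807.5 and 241856.5 in DMSO 72 h and between 139814.9 and 173103.3 in G-1 1 µM 72 h. Of 3 neuronal markers, RBFOX3 (-1.57 ± 0.25) and SNAP25 (-0.90 ± 0.17) fell and SYT1 (0.98 ± 0.17) rose, with summed intensities between 1031.5 and 1237.3 in DMSO 72 h and between 538.1 and 770.2 at the higher dose. After 24 h at that dose, the neuronal sum was between 525.1 and 714.3, against 1051.5 to 1527.7 in DMSO 24 h. Of the immune markers, CD14 rose by 1.23 ± 0.11, whereas PTPRC and AIF1 were on no array, and their sum went from 63.8 to 78.1 in DMSO 72 h to 140.1 to 164.7. The oligodendrocyte markers MBP (-0.57 ± 0.14) and MOG (-1.01 ± 0.22) fell as well. Of the endothelial markers, VWF fell by 1.70 ± 0.15 and PECAM1 was on no array, with sums of 109.5 to 151.2 against 42.9 to 68.0. The part of these markers in the changes of the members was not tested, and in bulk RNA fewer cells of a kind and less RNA per cell cannot be told apart.

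By Pearson correlation of log2 signal with SFRP4 over the 24 arrays, DHRS3 (r = 0.841), HEG1, B3GLCT, ABCB4 and SUSD4 (r between 0.768 and 0.777) came first out of 14231 genes. SFRP4 was well above background on 9 of those arrays and had no order on 5, and the arrays that chose it are among them, so the order of these genes is not resolved and the values carry no p. DHRS3 had group means of 8.03 in DMSO 72 h, 5.86 in G-1 IC50 72 h and 5.34 in G-1 1 µM 72 h, and of 7.75, 7.19 and 7.16 in the same order after 24 h.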

How the data were processed

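RNA of U251 cells was hybridized to 24 one-colour Agilent arrays. The authors deposited the intensity of every spot as Feature Extraction wrote it (background-subtracted, with 0 or 1 flags; 12.1.1.1 in the file headers, 10.7.3.1 in the submitters' processing notes), with no normalization between arrays. A log2 table deposited beside them matched the values used here within 0.00577 after centring each probe, with column medians between -0.346 and 0.556.

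For the values used here, flagged outlier spots were left out, replicate spots were averaged as log2 intensity, and values were set relative to the array's 75th percentile. Of 58118 probes, 22970 were tested, those with a well-above-background flag throughout at least 1 group. All 6 group means were fitted with limma 3.58.1 (R 4.3.3), and p-values were adjusted by Benjamini-Hochberg over those probes. A gene passed at an adjusted p under 0.05 and was called with a fold above 2 besides. Each gene was represented by its brightest probe. The number of arrays limits the precision.

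The titles and source names gave the groups. The duration field contradicted them in 2 groups (IC50 at 24 h, 1 µM at 72 h), and the study's methods give another DMSO concentration than the labels. Members and lists were chosen with earlier results of these data known. All 9 members, pathway genes called in a comparison with DMSO, and the 5 genes most correlated with SFRP4 were named by rule, as were the markers. Some marker results are not reported here. Other pathway genes were named after their values were seen. Over 16 pairs of arrays with the same replicate number, the deviations from the group means correlated between -0.113 and 0.485, and every pair exceeded 0.1 in 1 of 4 comparisons (G-1 1 µM 24 h). The scripts were tested on simulated data. Alternatives were other normalizations, background corrections, filters and tests, blocks by replicate number or by slide, and omission of single arrays. Promoters came from RefSeq (GRCh38.p14).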

Additional observations from a re-analysis of the deposited data

Results flagged for a closer look

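The signal of AXIN2 on replicate 1 of G-1 1 µM 72 h was -3.25, far from the other 3 arrays of its group (-2.37 to -2.21), and it was not well above background. Replicate 1 of G-1 IC50 72 h was -2.52 for the same gene, far from the other 3 (-1.82 to -1.73), and was well above background. Chance alone gives such a gap in about 1 in 20 groups.

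The response to G-1 1 µM differed between 24 h and 72 h by the interaction term for FRZB (-2.54), SFRP1 (-0.90) and LEF1 (-0.34). Every one of these was a larger fall relative to DMSO after 72 h. For SFRP1, the mean rose from 3.05 to 3.71 in DMSO and went from 2.74 to 2.50 at 1 µM. The LEF1 term no longer passed when 1 array was omitted for 9 of the 16.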

How the results depend on the processing

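Of 293 recomputed counts, 273 stayed within 1.5 times the first value or stayed at 0. All counts for the IC50 dose against DMSO were of the latter kind, which says little about stability. Of 690 recomputed values of single members, none that passed changed its direction, 2 of SFRP4 at 1 µM were no longer called (both with normexp), and 4 became called. With normexp background correction, no member was called in G-1 1 µM 24 h (0 in place of 1), and 0 in place of 2 pathway genes after 24 h and 5 in place of 8 after 72 h. The same correction moved SFRP4 in G-1 IC50 72 h from -2.17 to -0.35. When a probe had to be well above background on every one of the 24 arrays, 0 members and 1 pathway gene were called in G-1 1 µM 24 h, since SFRP4 and LGR6 were not tested. Without a filter on dim probes, 1 member was called in place of 0 between the doses at 24 h. It was SFRP2 (means -4.07 at 1 µM and -5.22 at the IC50 dose), which was well above background on no array, so it is no result.

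With no fold change threshold, the members called were 3 in G-1 1 µM 24 h, 5 in G-1 1 µM 72 h, 1 and 4 between the doses after 24 h and 72 h, 3 in the interaction of 1 µM with duration and 1 between the DMSO groups, and the pathway genes were 19 and 32 at 1 µM. The 3 and 5 at 1 µM include SFRP4. Without it they were 2 and 4 of 6, near the 30.6% and 66.2% of all genes that passed. Of all genes, 26.6% and 65.1% passed between the doses, 34.1% in the interaction and 3.29% between the DMSO groups. The interaction of 1 µM counted 2 members in place of 1 with quantile normalization and on the arrays of the comparison alone. The added member was SFRP4 in both, from signals not well above background at 1 µM, so it is no result. In the methods' t-test with adjustment, 1 pathway gene was called in G-1 1 µM 24 h.

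With 1 array omitted at a time, the interaction of 1 µM counted between 1 and 2 members, with 2 without replicate 3 of DMSO 72 h (SFRP1 at -1.01) or replicate 4 of G-1 1 µM 72 h (SFRP4 at -1.42, from signals not well above background). Pathway genes called were between 1 and 3 in G-1 1 µM 24 h, with 1 without replicate 1 of G-1 1 µM 24 h, and between 7 and 9 in G-1 1 µM 72 h. With the replicate number as a block, no count of called genes moved by over 1.5 times: 1 member in G-1 1 µM 24 h and 3 in G-1 1 µM 72 h. SFRP4 was the 1 member and was among the 3, from signals not well above background at 1 µM, so it is no support for these counts. The slide could be a block only where a slide held both groups. The methods' t-test was not run for the interactions. Without the filter, the median of all probes shifted by up to 0.445 at 1 µM. Low signal over background limits SFRP4, AXIN2 and LGR6.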
